A study of Mus musculus with 3 samples.

Results

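Imprinted genes are transcribed mainly from the allele inherited from 1 parent. The 41 genes described here are imprinted mouse genes outside the axis of Igf2, H19 and Plagl1. They lie in 10 imprinted clusters, with 6 further genes that stand alone in the list. The members were taken from a fixed list of names and found on the arrays by gene name, accession or synonym, such as Gtl2 for Meg3. Of the 41 genes, 39 had at least 1 probe, with 80 probes in all. Rtl1 and Nespas were not matched to a probe and are not analysed here. For 37 genes the scanner software flagged a probe as well above background on 1 array or more, and these 37 were tested among 17714 genes.

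The cells were mouse embryonic stem (ES) cells of the line V6.5, on a mixed background of the strains 129 and C57BL6. Each labelled sample was hybridised to an array of its own: 2 Tet1 knockout samples, KO 4 and KO 22, and 1 Tet1 wild type sample. All were grown with LIF, a cytokine that keeps ES cells undifferentiated, over irradiated feeders, and a preplating step came before total RNA was extracted. The labels do not say whether KO 4 and KO 22 are separate clones, lines or cultures, and the design text counts mice. The only spread behind the p-values is that between these 2 samples, possibly a technical one, and wild type has no replicate.

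At an imprinted cluster, DNA methylation laid down in the egg or sperm marks a control region on 1 parental chromosome and keeps neighbouring genes on or off there. The mark survives the erasure of methylation in the early embryo because Zfp57 and Trim28 recruit the maintenance enzyme Dnmt1 to it. Tet1 oxidises 5-methylcytosine, the modified base of these marks, and is abundant in ES cells. Imprinted genes are known for roles in growth, placenta and brain. The arrays read the summed RNA of both alleles, so the allele of origin was not measured.

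Levels are given as processed intensity, the spot brightness after background subtraction within the array. Differences are on the log2 scale after each array was scaled to its 75th percentile, knockout minus wild type, so that a difference of 1 is 2-fold. Intensities of different probes depend on the probe and are not compared between genes. The Tet1 probe itself (AK010953, chromosome 10, 62332082 to 62332141 on build mm7) gave 214 on KO 4, 195 on KO 22 and 721 on wild type. Its difference was -1.94 ± 0.09 (SE, n = 2 against 1, limma adjusted p = 0.0529), and whether it lies in the deleted part is not stated in the labels. Between 62.2% and 62.8% of 43379 non-control spots were well above background on the 3 arrays, which share 1 slide and 1 scan. All 8 ES cell markers were present on each array, with differences from -0.47 for Pou5f1 and Esrrb to 0.25 for Nanog.

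No imprinted gene passed the test over all genes, and none was 2-fold away from wild type on both knockout arrays. limma called 0 of the 37 higher and 0 lower at an adjusted p of 0.05, beside 0.0339% and 0.322% of all genes tested. On simulated arrays the same fit called 1 of 67 genes changed 2-fold. The lack of calls therefore does not show that the members were unchanged. At an unadjusted p of 0.05 the counts were 3 higher (8.11%) and 10 lower (27.0%), beside 13.2% and 14.9% of all genes. A 2-fold difference on both knockout arrays was seen for 1.45% of all genes in the higher and 1.56% in the lower direction. Because limma pulls each gene's spread toward a common value, an SE of 0.09 is the lowest it gives and not a precision measured for that gene.

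How many members passed depended on the processing, and so did the count over all genes. With normexp background correction 3 were called higher and 9 lower, beside 7.73% and 10.6% of all genes. With an intensity trend in eBayes 3 were called higher and 7 lower, beside 8.31% and 10.7%. In the authors' series matrix values 2 and 1 were called (2.71% and 2.82% of all genes), and with a filter requiring all 3 arrays above background 2 and 1 (3.02% and 2.5%). Peg12 and Slc38a4 were the genes called higher, and Grb10 the gene called lower, in both of these last settings. No member was called with quantile normalization (0.0339% and 0.277% of all genes), median scaling (0.096% and 0.423%), the mean over probes (0.0339% and 0.322%) or no filter (0.0% in each direction).

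More members read lower than higher, and the same held over all genes. On both knockout arrays 21 of the 37 were lower (56.8%, beside 45.5% of all genes) and 10 were higher (27.0%, beside 38.0%), while 6 lay on either side of wild type. For 14 genes lower on both and 6 higher on both, the knockout arrays were nearer to each other than to wild type (37.8% and 16.2%, beside 33.1% and 26.1% of all genes). The median difference was -0.06 on KO 4 and -0.19 on KO 22, against -0.04 and -0.02 for all genes. Of 19 tested genes expressed from the paternal allele, 9 were lower and 6 higher on both arrays. Of 16 expressed from the maternal allele, 11 were lower and 3 higher. The sets follow a fixed assignment and not the allele used in these cells, which was not measured. Ube3a, Tssc4 and Cd81 thus count as maternal, and Grb10 and Gnas fall in neither set. The medians of the mean difference were -0.10 for the paternal and -0.16 for the maternal set, and the sets were not tested against each other. For 34 of the 37 genes the knockout arrays were within 0.5 of each other.

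**Figure D1:**
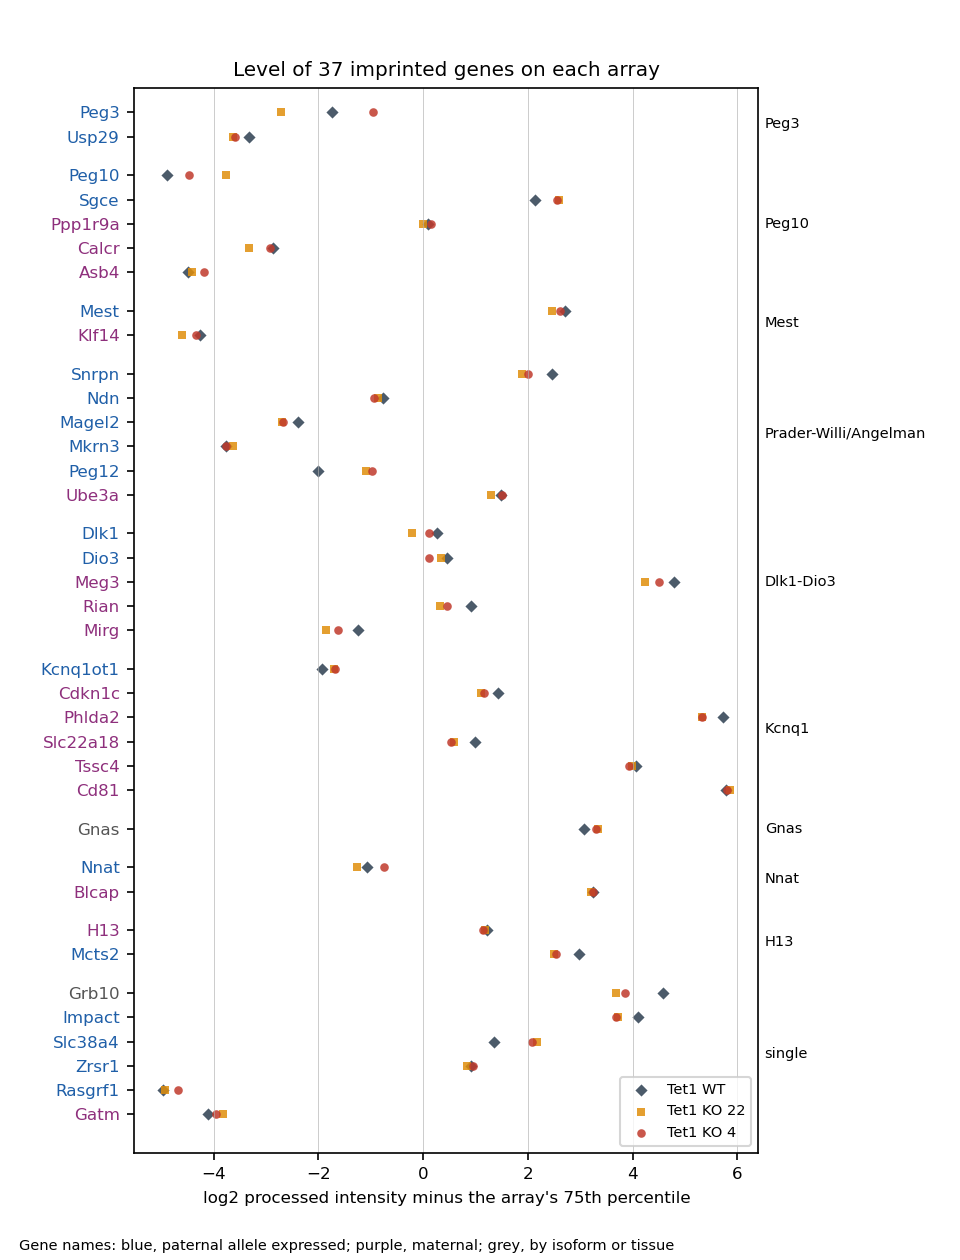
The plot gives log2 processed intensity relative to the array's 75th percentile (x axis) for the 37 tested imprinted genes (y axis), grouped by cluster, with 1 point per array for KO 4, KO 22 and wild type. Levels can be compared along a line and not between genes; the wild type point stands to the right of both knockout points for 21 genes and to the left for 10.

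**Figure D2:**
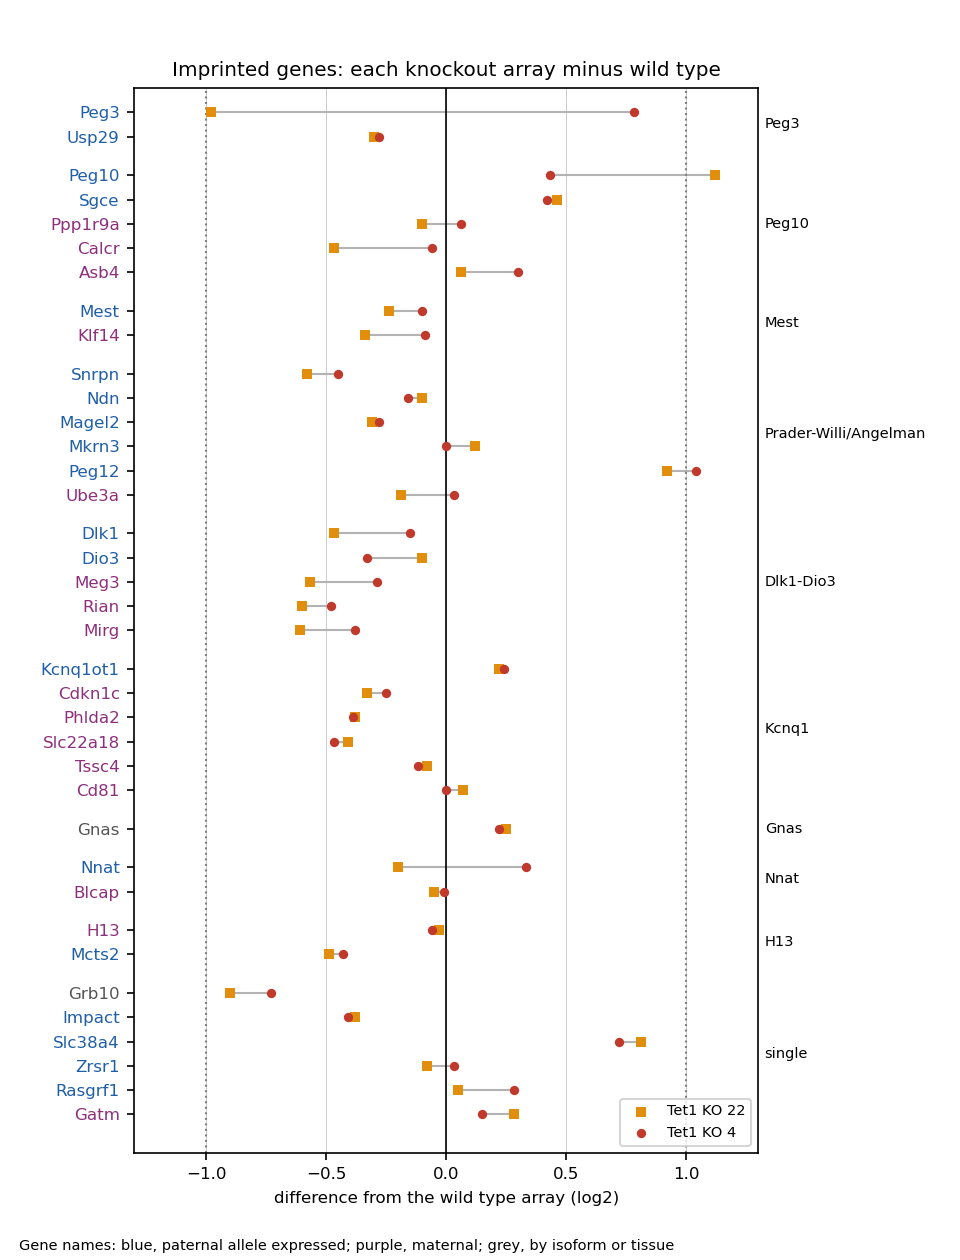
Each line joins the difference of KO 4 and of KO 22 from the wild type array (x axis, log2) for 1 imprinted gene, and dotted lines mark 2-fold. On KO 4 and KO 22, Peg12 lies at 1.04 and 0.92, Slc38a4 at 0.72 and 0.81 and Grb10 at -0.73 and -0.90. The line of Peg3 runs from 0.78 on KO 4 to -0.98 on KO 22, and that of Peg10 from 0.43 on KO 4 to 1.12 on KO 22.

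The mean differences of the largest size were those of Peg12, Grb10, Peg10 and Slc38a4. Peg10, on which the knockout arrays were 0.69 apart, is given with its cluster. The promoters of the other 3 are printed because these genes were called in the series matrix values and under the filter on all 3 arrays, a choice made after the values were seen. Peg12, also called Frat3, encodes a relative of the Frat proteins, which bind the kinase GSK3 in Wnt signalling, and is expressed from the paternal allele. Its probe gave 367 on KO 4, 303 on KO 22 and 154 on wild type (NM_013788, chromosome 7, 58211942 to 58212001 on mm7). Both knockout arrays lay above wild type and close to each other. The difference was 1.04 on KO 4 and 0.92 on KO 22, with a mean of 0.98 ± 0.11 (1.98-fold, limma adjusted p = 0.0988).

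Slc38a4, a paternally expressed amino acid transporter gene active in placenta and liver, was represented by 2 probes. The brighter one (chromosome 15, 96996450 to 96996509 on mm7) gave 3030 on KO 4, 2893 on KO 22 and 1598 on wild type. The other gave 835, 865 and 445. On both probes the knockout arrays stood together above wild type. The mean difference of the brighter probe was 0.76 ± 0.10 (1.70-fold, limma adjusted p = 0.101), and the other read 0.71 on KO 4 and 0.91 on KO 22.

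Grb10 encodes an adaptor that restrains signalling by the insulin and IGF1 receptors. It is expressed from the maternal allele in most tissues and from the paternal allele in neurons. All 3 of its probes were lower on both knockout arrays. The brightest (chromosome 11, 11882970 to 11883029 on mm7) gave 10371 on KO 4, 8254 on KO 22 and 14908 on wild type. Its mean difference was -0.81 ± 0.12 (1.76-fold lower, limma adjusted p = 0.105), and the other probes ranged from -0.48 to -0.63. With a filter requiring all 3 arrays above background the adjusted p of Peg12, Slc38a4 and Grb10 became 0.0415, 0.0451 and 0.0485. They also passed in the authors' series matrix values (0.0352, 0.0391 and 0.0443), with an intensity trend in eBayes (0.00654, 0.00561 and 0.0066) and with normexp background correction (6.41e-05, 5.61e-05 and 3.73e-05).

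The RefSeq promoter windows of these 3 genes, 250 bases before to 50 after an annotated start on GRCm38.p6, differ in their content of CpG dinucleotides, the sites where DNA methylation sits. The sequences below run 5′ to 3′ on the strand of the gene, and capitals mark each CpG. The Peg12 window (chr7:62464461-62464760, minus strand) has 12 CpGs, mostly toward its 3′ end. Slc38a4 has 3 windows with 5 CpGs each, of which the most upstream is shown (chr15:97055907-97056206, minus strand). Grb10 has 2, and the upstream one (chr11:12037371-12037670, minus strand) has 45. The other Grb10 window (chr11:12027922-12028221) has 9 and is not shown.
Peg12: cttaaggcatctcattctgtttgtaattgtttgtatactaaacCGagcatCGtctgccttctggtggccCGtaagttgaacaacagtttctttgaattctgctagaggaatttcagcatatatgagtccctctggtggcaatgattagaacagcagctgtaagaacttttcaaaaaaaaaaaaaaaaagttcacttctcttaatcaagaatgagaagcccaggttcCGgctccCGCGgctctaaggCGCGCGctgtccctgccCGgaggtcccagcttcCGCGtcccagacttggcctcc
Slc38a4: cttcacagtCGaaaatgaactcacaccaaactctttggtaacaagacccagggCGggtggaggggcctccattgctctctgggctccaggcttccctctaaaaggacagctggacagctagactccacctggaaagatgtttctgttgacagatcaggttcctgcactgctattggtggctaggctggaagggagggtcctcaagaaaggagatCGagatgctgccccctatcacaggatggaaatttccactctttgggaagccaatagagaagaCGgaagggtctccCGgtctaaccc
Grb10: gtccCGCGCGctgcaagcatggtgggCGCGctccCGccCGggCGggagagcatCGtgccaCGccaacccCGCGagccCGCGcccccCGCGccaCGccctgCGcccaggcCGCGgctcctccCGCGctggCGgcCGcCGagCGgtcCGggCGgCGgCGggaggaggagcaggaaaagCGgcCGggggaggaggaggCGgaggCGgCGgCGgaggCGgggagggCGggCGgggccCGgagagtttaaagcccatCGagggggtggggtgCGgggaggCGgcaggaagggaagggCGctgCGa
Over all members, 34 had a window in the table, with a median of 13 CpGs per window against 7 over 32851 windows of all genes. Zfp57 binds the methylated hexamer TGCCGC, which was searched on both strands. It was found in 18.4% of 49 member windows and 11.6% of all windows, and among these 3 genes in the upstream Grb10 window alone, once. The hexamer itself holds a CpG, and no share matched for CpG content was computed. Overlapping windows of Mest were each counted. The arrays carry no methylation values, so the state of these CpGs was not measured.

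At the Dlk1-Dio3 cluster on chromosome 12, which places protein genes on the paternal and long noncoding RNAs on the maternal chromosome, all 5 measured members read lower on both knockout arrays, beside 45.5% of all genes. None passed the test over all genes. Meg3, the maternally expressed noncoding RNA whose silencing is known from many ES and induced pluripotent cell lines, was present on every array. Its brightest probe gave 16242 on KO 4, 12083 on KO 22 and 17285 on wild type. Another Meg3 probe, placed toward the 5′ end, gave 6063, 4969 and 7123. All 5 Meg3 probes were above background on all arrays and lower on both knockout arrays, from -0.29 to -0.55 on KO 4 and from -0.38 to -0.57 on KO 22. The tested difference was -0.43 ± 0.16 (limma adjusted p = 0.215).

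Rian, a downstream noncoding RNA that hosts small nucleolar RNAs, gave 978 on KO 4, 810 on KO 22 and 1184 on wild type, a difference of -0.54 ± 0.11 (limma adjusted p = 0.12, and 0.0159 with an intensity trend). A second, dim Rian probe gave 24.4, 40.1 and 22.9 and was higher on KO 22, so that the mean over both probes was -0.10. Mirg, the host of a microRNA group farther downstream, gave 232, 177 and 263, a difference of -0.50 ± 0.14 (limma adjusted p = 0.164). On their brightest probes the 3 maternal RNAs of this cluster were thus lower by amounts close to each other. KO 22 lay below KO 4 in each of these probes. The mean differences of the paternal genes were smaller, though not on each array alone, and were not tested against the maternal ones. Dlk1, which encodes a membrane protein related to Notch ligands, gave 776, 558 and 749, a difference of -0.31 ± 0.18. The thyroid hormone deiodinase gene Dio3 gave 780, 823 and 852, a difference of -0.21 ± 0.15 (limma adjusted p = 0.351 and 0.405). On KO 4 alone Dio3 read -0.33, further from wild type than the brightest Meg3 probe at -0.29. The second Dlk1 probe read -0.30 on KO 4 and -0.39 on KO 22. The upstream of 2 Meg3 windows (chr12:109540746-109541045, plus strand) is shown because the maternal RNAs read lower together. It holds 13 CpGs, in capitals, and 1 copy of the hexamer TGCCGC or its reverse complement. The other Meg3 window (chr12:109545148-109545447) has 1 CpG and no copy.
Meg3: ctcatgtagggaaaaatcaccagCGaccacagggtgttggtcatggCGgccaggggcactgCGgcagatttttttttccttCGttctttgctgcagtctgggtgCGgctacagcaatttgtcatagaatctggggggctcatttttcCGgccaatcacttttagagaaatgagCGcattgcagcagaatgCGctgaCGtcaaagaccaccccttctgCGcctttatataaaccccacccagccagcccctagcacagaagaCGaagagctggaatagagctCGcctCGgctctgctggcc

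At the Prader-Willi/Angelman cluster on chromosome 7 the members did not move as a block. Snrpn, which encodes the splicing protein SmN, gave 2894 on KO 4, 2388 on KO 22 and 3445 on wild type on its brighter probe, a difference of -0.52 ± 0.11 (limma adjusted p = 0.125, and 0.0151 with an intensity trend). Its other probe, which overlaps the first, read -0.32 and -0.33. The MAGE family genes Magel2 and Ndn had differences of -0.29 ± 0.09 and -0.13 ± 0.09. Mkrn3, a makorin ubiquitin ligase gene linked to the timing of puberty, stood at 0.06 ± 0.11. Peg12, beyond Mkrn3 in the same paternal domain, was the highest of the cluster, as given above. Ube3a, an E3 ubiquitin ligase gene imprinted in neurons and expressed from both alleles in most cells, gave 2039, 1575 and 1734 on its brightest probe. That is a difference of -0.08 ± 0.14, and the knockout arrays lay on either side of wild type. Its other probes were lower on both knockout arrays.

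At the Kcnq1 cluster farther along chromosome 7, the paternal noncoding RNA and 1 of 5 maternal genes read higher on both knockout arrays and the other 4 lower, with no difference past the test. Kcnq1ot1 gave 223 on KO 4, 197 on KO 22 and 163 on wild type, a difference of 0.23 ± 0.09 (limma adjusted p = 0.218). Phlda2, a maternally expressed gene that limits placental growth, gave 28873, 26010 and 32844, a difference of -0.39 ± 0.09 (limma adjusted p = 0.132, and 0.0205 with an intensity trend). Slc22a18, an organic cation transporter-like gene beside it, gave 1034, 968 and 1244, a difference of -0.44 ± 0.09 (limma adjusted p = 0.126, and 0.0207 with an intensity trend). Both genes had a second probe with the same direction. Cdkn1c, the inhibitor of cyclin-dependent kinases p57, gave 1620, 1384 and 1678, a difference of -0.29 ± 0.10 (limma adjusted p = 0.185). Kcnq1ot1 was thus higher and the other 3 genes lower on both knockout arrays, as were 38.0% and 45.5% of all genes. Tssc4 and the tetraspanin gene Cd81, imprinted in placenta, stood at -0.10 ± 0.09 and 0.04 ± 0.09.

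Peg3 was the 1 tested member on which the knockout arrays were at least 2-fold apart. It encodes a paternally expressed zinc-finger protein. The brighter probe (chromosome 7, 6266913 to 6266972 on mm7) gave 370 on KO 4, 98.5 on KO 22 and 187 on wild type. A second probe gave 92.8, 17.2 and 37.4. KO 4 was the highest and KO 22 the lowest array on both, with wild type between them. The knockout arrays were 1.75 apart on the brighter probe, and a gap of at least 1 was seen for 1.42% of all genes and for no other of the 37. The mean difference of -0.10 ± 0.88 (limma adjusted p = 0.953) therefore describes neither sample. Fibroblast markers also differed between the knockout arrays. Of these 18 genes 6 were higher on both, 3 lower on both and 9 split, and the medians were 0.67 for KO 4 and -0.08 for KO 22. Their summed level was 57.6, 43.1 and 34.3 times the 75th percentile on KO 4, KO 22 and wild type. Most of that sum came from Tagln (19585, 12006 and 5090) and Acta2 (10406, 8718 and 8855). The higher sum on KO 22 than on wild type rests on Tagln. Several other fibroblast markers, among them Col3a1 (369, 143 and 147) and Dcn (122, 70.9 and 63.9), were brightest on KO 4. Their part in the Peg3 values was not tested, and in these bulk samples fewer cells of a type and less RNA per cell cannot be told apart.

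Peg3 shares its start region with Usp29, a paternally expressed gene of the ubiquitin-specific protease family read from the opposite strand. Their promoter windows overlap by 263 bases. Usp29 did not follow Peg3 on its tested probe, which gave 59.1 on KO 4, 52.5 on KO 22 and 62.5 on wild type (-0.29 ± 0.09, limma adjusted p = 0.17). A second Usp29 probe, nearer to the shared start, gave 58.3, 37 and 32.7, so that the mean over both probes was 0.04. The direction of Usp29 is therefore unsettled. Zim1, the maternally expressed zinc-finger gene of the cluster, was not above background on any array (2.37, 3.36 and 2.36). The shared window is shown on the strand of Peg3 (chr7:6730370-6730669, minus strand), with its 13 CpGs in capitals.
Peg3: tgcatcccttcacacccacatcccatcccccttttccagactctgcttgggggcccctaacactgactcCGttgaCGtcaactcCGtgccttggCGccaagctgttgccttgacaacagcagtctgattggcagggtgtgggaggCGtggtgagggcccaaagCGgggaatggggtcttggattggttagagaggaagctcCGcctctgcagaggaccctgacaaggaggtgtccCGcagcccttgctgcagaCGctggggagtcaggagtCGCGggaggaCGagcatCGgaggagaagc

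In the Peg10 cluster on chromosome 6 the paternal pair read higher. Sgce, which encodes epsilon-sarcoglycan of the muscle membrane complex, gave 4207 on KO 4, 3882 on KO 22 and 2738 on wild type, a difference of 0.44 ± 0.09 (limma adjusted p = 0.124, and 0.0161 with an intensity trend). Its other probe gave 585, 531 and 350. Peg10, derived from a retrotransposon and needed for the placenta, lies head to head with Sgce. Its only probe was dim, at 32.7, 47.4 and 21.1. The difference was 0.43 on KO 4 and 1.12 on KO 22, with a mean of 0.77 ± 0.35 (limma adjusted p = 0.267), or 0.20 with normexp background correction. The maternally expressed neighbours showed smaller values. Ppp1r9a, which encodes the actin-binding protein neurabin, gave 797, 638 and 663 on its brighter probe (-0.02 ± 0.12) and 103, 92.6 and 74.7 on another that was higher on both knockout arrays. The calcitonin receptor gene Calcr stood at -0.27 ± 0.22 and Asb4, a gene of the SOCS box family, at 0.18 ± 0.15. Asb4 turned to -0.05 with normexp.

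**Figure D3:**
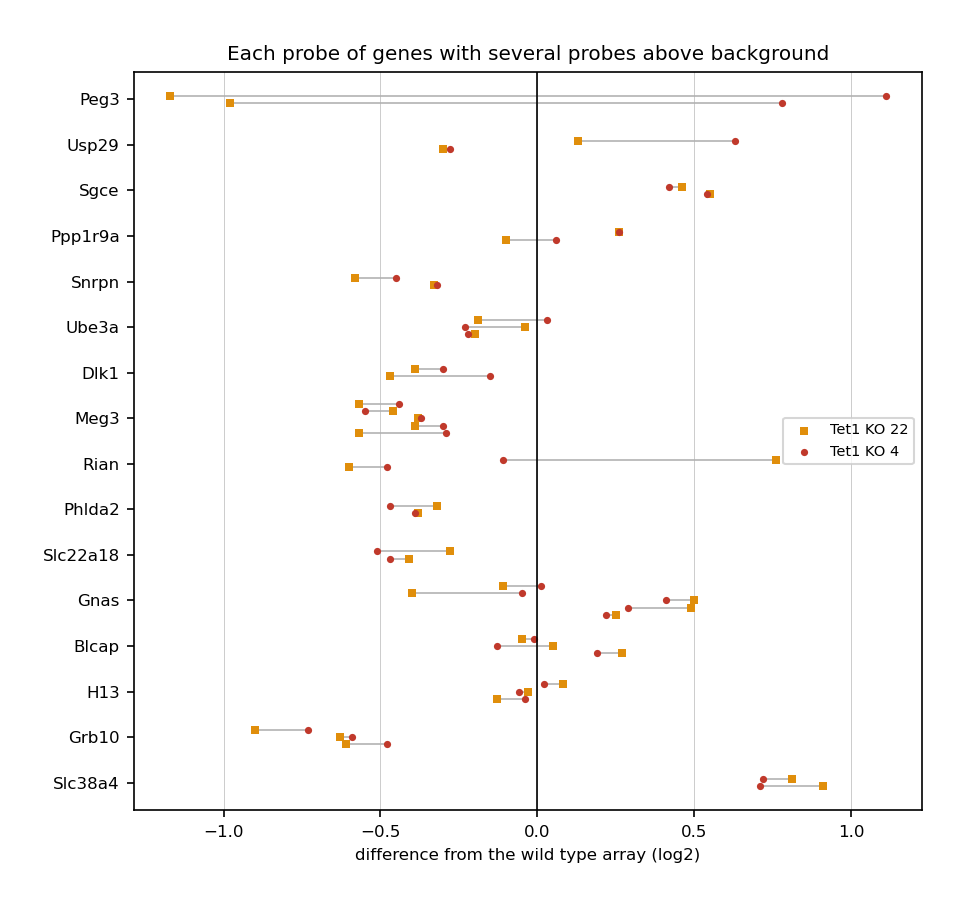
The plot gives the difference of KO 4 and of KO 22 from the wild type array (x axis, log2) for each probe above background on all 3 arrays, for the 16 members with at least 2 such probes. Probes of 8 genes lie all on 1 side of 0 on both arrays, among them 5 of Meg3 and 3 of Grb10, and those of the other 8, such as Usp29 and Gnas, do not.

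The pairs on chromosome 2 hold a paternally expressed gene within or beside a larger host gene. Mcts2, a retrogene lying inside an intron of H13, gave 4182 on KO 4, 3611 on KO 22 and 4907 on wild type, a difference of -0.46 ± 0.09 (limma adjusted p = 0.121, and 0.0148 with an intensity trend). Its host H13, the signal peptide peptidase gene, gave 1598, 1471 and 1449 and stood at -0.04 ± 0.09, with 2 probes lower and 1 higher on both knockout arrays. In the Nnat pair, the paternally expressed proteolipid gene Nnat gave 430, 267 and 298, with the knockout arrays on either side of wild type (0.06 ± 0.28). Its host Blcap gave 6776, 5932 and 5935, and its 3 probes did not share a direction. The difference of the brightest was -0.03 ± 0.09, or 0.02 with quantile normalization. Gnas, the gene of the stimulatory G protein alpha subunit, makes transcripts imprinted on either allele or on neither. Of its 8 probes, 7 have a position, from 174028787 to 174087618 on chromosome 2 of mm7. The brightest, at the 3′ end that the isoforms share, gave 7062, 6475 and 5259, a difference of 0.24 ± 0.09 (limma adjusted p = 0.215). A probe for a noncoding RNA over exon 1A of Gnas, as its description in the files says, gave 28.9, 27.6 and 18.9. Of the dim Gnas probes, 1 for an XL alpha s fragment was above background on KO 22 only.

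Of the remaining members, Impact was bright and lower on both knockout arrays, and the others had mean differences from -0.21 to 0.21 or were not above background. Impact, a paternally expressed regulator of the Gcn2 stress kinase pathway, gave 9265 on KO 4, 8526 on KO 22 and 10717 on wild type, a difference of -0.40 ± 0.09 (limma adjusted p = 0.131, and 0.0192 with an intensity trend). Mest, a paternally expressed hydrolase gene of mesoderm, gave 4380, 3552 and 4067 (-0.17 ± 0.11). Klf14, a transcription factor gene in its neighbourhood, stood at -0.21 ± 0.15. The splicing factor-like gene Zrsr1 was at -0.03 ± 0.10, Rasgrf1, a Ras exchange factor gene of neurons, at 0.16 ± 0.15 on a dim probe, and the creatine synthesis gene Gatm at 0.21 ± 0.11. Airn, the noncoding RNA that silences Igf2r on the paternal chromosome, had 3 probes, none above background on any array (at most 5.69).

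Genes that set or keep imprints were read as RNA from a list of 20 made for this purpose. Of these, 19 were tested and Ctcfl was not above background. limma called 0 of them, and an unadjusted p of 0.05 was met by 2 higher and 4 lower genes (beside 13.2% and 14.9% of all genes). The intensity trend called 2 and 4 (beside 8.31% and 10.7%). On both knockout arrays 13 were lower and 4 higher, beside 45.5% and 38.0% of all genes, with a median difference of -0.21. The de novo methyltransferase gene Dnmt3a gave 1498 on KO 4, 1091 on KO 22 and 2572 on wild type, a difference of -1.13 ± 0.17 (limma adjusted p = 0.106). Dppa3, whose protein guards maternal imprints after fertilisation, gave 16155, 13861 and 6920, a difference of 0.99 ± 0.09 (limma adjusted p = 0.0972). Zfp57 itself stood at -0.23 ± 0.11, its partner gene Trim28 at -0.48 ± 0.09 and the second imprint-binding gene Zfp445 at -0.54 ± 0.11. Dnmt1 and its guide Uhrf1 stood at -0.30 ± 0.11 and -0.22 ± 0.09, and the cofactor gene Dnmt3l at -0.40 ± 0.09. The Polycomb gene Eed, needed for imprinting in placenta, stood at 0.32 ± 0.09.

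Markers of other cell types that such cultures can hold were read beside the imprinted genes. limma called 0 of 11 trophoblast markers and 1 of 10 endoderm markers, Cubn, which was lower. Over all genes 0.0339% were called higher and 0.322% lower. Among the 11 trophoblast markers tested, KO 4 and KO 22 both exceeded wild type for 10 (beside 38.0% of all genes), with medians of 0.69 and 0.76. Ascl2 was lower on both (-0.47 and -0.44). The summed level of the list was 232.0, 205.0 and 129.5 times the 75th percentile on KO 4, KO 22 and wild type. Most of that sum came from the keratin genes Krt18 (94048, 76922 and 40731) and Krt8 (60561, 43998 and 32532). Elf5 and Tpbpa were not above background. Of 10 tested primitive and visceral endoderm markers 9 were lower on both (beside 45.5% of all genes), with a summed level of 2.7, 2.7 and 4.5. The exception was Amn (0.36 on KO 4 and 0.43 on KO 22), which weighed most in that sum on each array. Afp, Ttr and Apoa1 were not above background. Trophoblast and placenta express Slc38a4, Phlda2, Peg10 and other members. Their part in the imprinted gene values was not tested.

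**Figure D4:**
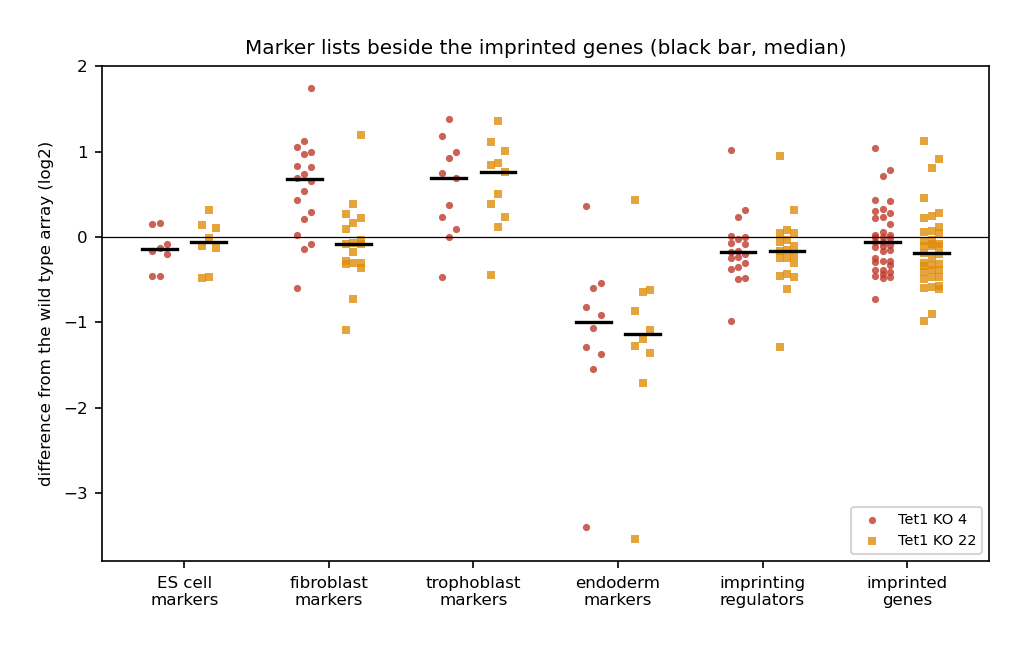
Points give the difference of KO 4 and of KO 22 from the wild type array (y axis, log2) for the tested genes of each marker list, of the imprinting regulators and of the 37 imprinted genes, and black bars give medians. The fibroblast median is 0.67 on KO 4 and -0.08 on KO 22, whereas the medians of the imprinted genes are -0.06 and -0.19.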

How the data were processed

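RNA of 3 samples was read on Agilent 1-colour (Cy3) arrays. The deposited scanner files hold intensity values from Feature Extraction 10.1.1.1, background-subtracted and detrended within the array, with no scaling between arrays, per the file headers. The authors' deposited series matrix holds log2 values whose 3 columns share 1 distribution and a median of 5.52. Its log2 scale was read from its correlation of 0.991 to 0.993 with log2 mean spot intensity, and its background correction stays unknown. Among tools, limma appears in the submitters' processing notes with no version.

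Here the log2 of processed intensity was scaled by subtracting the 75th percentile of the array. Outlier-flagged spots were dropped, and spots of a probe were averaged. Of 41174 probes, 32719 (79.5%) were named through a RefSeq table (GRCm38.p6). Probes well above background on at least 1 array were kept, the brightest per gene represented it, and 17714 genes were tested with limma 3.58.1 in R 4.3.3 (lmFit, eBayes), with Benjamini-Hochberg adjustment at 0.05. The fit has 1 residual degree of freedom, 3.03 after moderation, and assumes for the single wild type sample the spread of the knockouts. On simulated arrays it called 1 of 67 genes changed by 1 on the log2 scale and 51 of 67 changed by 2, with 15 of 17514 unchanged genes called. With an intensity trend these numbers were 56 of 67, 65 of 67 and 70 of 17514. The simulated spread was made to follow intensity, as the trend fit assumes. The number of arrays limits the precision.

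Probe positions are those in the files (mm7), and promoter sequences come from RefSeq (GRCm38.p6). By the rule for named genes every member may be named, with values per array for those called, 2-fold away on both knockout arrays or with probes that disagree in sign. Other values per array and the printed promoters were chosen after the values were seen. The members, lists and rules were chosen with earlier results of these data known. Alternatives were normexp background correction (without 8 wild type spots dimmer than their background), quantile and median scaling, the series matrix, other filters, an intensity trend, the mean over probes and leaving out each knockout sample. No column of another series was used. The sequence of Impact is not shown.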

Additional observations from a re-analysis of the deposited data

How the results depend on the processing

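No paired analysis was possible because the knockout and wild type samples share no replicate numbers. Members called higher and lower numbered 0 and 0 as reported, 3 and 9 with normexp background correction, 3 and 7 with an intensity trend, and 2 and 1 both in the series matrix values and under the filter on all 3 arrays. Over all genes these settings called 3254, 3372, 979 and 906 of the genes tested, against 63 as reported and 0 without a filter. Quantile and median scaling, no filter and the mean over probes called 0 members. On 1 knockout array alone, 1 member was 2-fold higher, Peg10 without KO 4 and Peg12 without KO 22, and the median difference of the members ranged from -0.19 without KO 4 to -0.06 without KO 22, against -0.10. The mean difference kept its sign for 27 of 37 members under all alternatives and for 31 under those that keep all 3 arrays. Leaving out a knockout sample turned the 6 members whose knockout arrays lie on either side of wild type: Peg3 to 0.78, Ppp1r9a to 0.06, Ube3a and Zrsr1 to 0.03 and Mkrn3 to just below 0 without KO 22, and Nnat to -0.20 without KO 4. With the mean over probes Usp29 turned to 0.04, Ppp1r9a to 0.12, Blcap to 0.05 and Rasgrf1 to -0.13. With normexp Asb4 turned to -0.05 and Mkrn3 to -0.03, which stood at -0.01 in the series matrix values, and Blcap turned to 0.02 with quantile normalization. The cause of the turns with all 3 arrays was not tested. Spots bright on 1 array alone lay within 2 rows and columns of 7 of 63 member probes above background on all arrays, among them probes of Slc38a4, Snrpn, Mcts2 and Impact.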

Other observations

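Probes of other genes lying between the outermost member probes of a cluster on mm7, and above background on all 3 arrays, were read after the values of the members had been seen. Snurf, which shares its transcript with Snrpn, gave 1048 on KO 4, 916 on KO 22 and 1135 on wild type, with differences of -0.32 and -0.36. Snhg14, the long RNA that runs from this region across Ube3a in neurons, had a probe near Snrpn at 2788, 2768 and 2914 and a dim one near Ube3a at 39.9, 32.4 and 34.4. Copg2, the coatomer gene whose end overlaps that of Mest, had 3 probes. Its brightest gave 3635, 3536 and 3096, with differences of 0.03 and 0.14, and a dim one read 0.45 and 0.48. Casd1, beside Sgce, read 0.13 and 0.09, and Kcnq1, the host of Kcnq1ot1, read 0.16 on KO 4 and 0.53 on KO 22 from a dim probe (74.3, 86.4 and 57.8). Pon2 and Pon3, paraoxonase genes between Ppp1r9a and Asb4, read 0.81 and 0.23 and 0.17 and 0.11 on their brightest probes. A dimmer Pon2 probe read 0.44 on KO 4 and -0.20 on KO 22. Col1a2, a fibroblast collagen gene between Calcr and Sgce, read 0.97 on KO 4 and 0.17 on KO 22. In the Dlk1-Dio3 cluster, a probe without a gene symbol between Mirg and Dio3 gave 2016 on KO 4, 2200 on KO 22 and 1696 on wild type. Its differences were 0.05 and 0.33, unlike the members of that cluster, which read lower.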
